A study of Mus musculus with 6 samples.

Results

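Among the RNA contact sites of JARID2 in mouse embryonic stem cells, 766 nuclear sites of intermediate score in untreated cells still overlapped a contact site after retinoic acid. They were taken from the authors' untreated list by 4 conditions. The score was at least 20 and under 1000, the site was not on the mitochondrial chromosome or on random or unplaced contigs, and it overlapped a site of the retinoic acid list by 1 base or more, strand included. It also lay outside chromosome 17 from 39979900 to 39985800 and chromosome 19 from 5795600 to 5802700. These 766 were part of 8957 nuclear untreated sites in that score range and of 23380 untreated sites in all, and they are called kept sites here. Their overlapping sites in the retinoic acid list numbered 751 of 5348.

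The cells were E14, a line of mouse embryonic stem cells grown with serum and LIF, the cytokine that holds such cells undifferentiated. The untreated group and the group given 2 µM retinoic acid for 24 h had 3 libraries each, and the labels give no genetic change in either group. All cells received 500 µM 4-thiouridine for 2 h and 400 mJ/cm2 of light at 312 nm, and JARID2 was precipitated with an in-house antibody. Each condition is deposited as 1 list for its 3 libraries together, so there is 1 score per site and condition, no spread between replicates, and no test of a score change. Positions are of the mm9 build, counted from 1, and no gene names are given because an annotation of that build was not used here.

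JARID2 is a subunit of some forms of the Polycomb repressive complex PRC2, which methylates histone H3 at lysine 27 at silent developmental genes, and it binds RNA as well as chromatin. Retinoic acid acts through nuclear receptors and drives embryonic stem cells toward differentiation, often along neural lines. In PAR-CLIP, 4-thiouridine taken up into new RNA crosslinks to a bound protein under ultraviolet light. The ends of a reported site depend on where the reads of the trimmed RNA fragments pile up and on the calling of sites, so a site marks a short stretch near a crosslink and not the crosslinked base alone.

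Of the 8957 sites of this score range, 8.55% were kept (exact 95% binomial interval 7.98 to 9.15, counting error only), beside 6.28% of all 23380 untreated sites. The share was 3.79% of those scored 20 to 49 (245 of 6458), 15.2% at 50 up to 100 (217 of 1432) and 23.6% at 100 up to 200 (128 of 542). It reached 30.4% at 200 up to 500 (114 of 375) and 41.3% at 500 up to 1000 (62 of 150). Sites next outside the range gave 1.09% at 10 to 19 and 62.7% at 1000 or more. The rule itself used score and overlap, so this gradient describes how the members were chosen and was not tested.

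**Figure D1:**
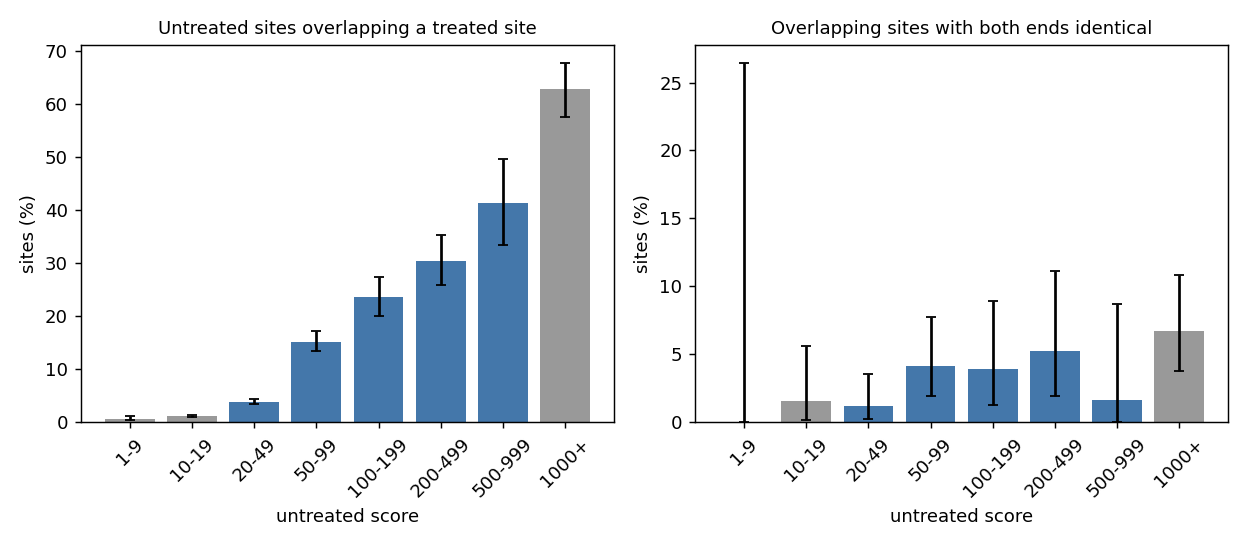
Left, the percentage of nuclear untreated sites that overlapped a treated site, by untreated score, and right, the percentage of the overlapping sites with both ends identical. Blue bars are the range of the kept sites, grey bars lie outside it, and error bars are exact 95% binomial intervals; the kept share goes from 3.79% to 41.3% across the blue bars, while the share with identical ends stays between 1.22% and 5.26%.

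At the lower bound, 13 of 622 untreated sites with a score of exactly 20 were kept, with treated scores of 10 to 93 (median 26). Of 675 sites scored 19, 9 overlapped a treated site, with treated scores of 12 to 46 (median 19). At the upper bound, the highest-scored kept site was at chr7:117203223-117203237 (minus strand), with 960 untreated and 1086 treated. The lowest-scored overlapping site above the range, at chr7:106628088-106628103 (minus strand), had 1006 and 358.

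The kept sites were spread over 539 loci, where sites on 1 strand were joined across gaps of up to 10 kb. Of these loci, 451 held a single kept site and 88 held 2 or more, with 315 kept sites in the 88. Only 11 loci held 5 or more, and these carried 129 kept sites, 16.8% of the total. The largest locus held 40, or 5.22%. Both strands were used about equally, with 396 kept sites on the plus strand (51.7%), beside 52.8% of the 8191 sites of the same score range that were not kept. Kept sites lay on all autosomes, on X and, with 1 site, on Y. The share kept ranged from 2.78% on chromosome 16 (7 of 252, exact interval 1.12 to 5.64) to 11.8% on chromosome 1 (102 of 866, 9.71 to 14.1) among chromosomes other than Y. The largest locus supplied 40 of the 102 on chromosome 1.

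Some sites that were not kept lay near a treated site without touching one. The shares were computed for these sites only, with no other set beside them. Of the 8191, 807 (9.85%) had a treated site of the same strand within 100 bases, 2261 (27.6%) within 1 kb and 4316 (52.7%) within 10 kb. An overlap of bases is thus a narrower condition than a shared locus. Site names in the lists join parts by a dot, and the part before the dot is used here as a name label. What this label stands for was not established. Among the kept sites, 280 (36.6%) carried a name label that at least 1 other untreated site also carried. The same held for 772 (52.6%) of all 1468 overlapping sites. Among sites not kept, 1292 (15.8%) carried such a label. Kept and unkept sites differ in score, with 32.0% and 75.9% scored 20 to 49. The part of score in the name-label difference was not tested.

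As deposited, the treated scores of the kept sites lay slightly below the untreated ones in the middle of the distribution, and most pairs were within 2-fold. The median score was 73 untreated (quartiles 40 and 175.5), and over the 766 pairs it was also 73 treated (36 and 156.8). Pair by pair, the median log2 change of score, treated over untreated, was -0.23 (quartiles -0.87 and 0.52), a ratio of 0.856. The partner was lower at 437 kept sites (57.0%), higher at 322 (42.0%) and equal at 7. Among all 1468 overlapping untreated sites, 61.8% were lower and 37.3% higher. The partner was at least 2-fold lower at 161 (21.0%), at least 2-fold higher at 90 (11.7%) and within 2-fold at 515 (67.2%). Over all 1468 untreated sites that overlapped a treated one, members included, 25.5% were at least 2-fold lower and 11.1% at least 2-fold higher, with a median log2 change of -0.36. Spearman's rho between untreated and treated score was 0.75 over the 766 pairs, which share locus and library pool, and Pearson's r of the log2 scores was 0.76.

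**Figure D2:**
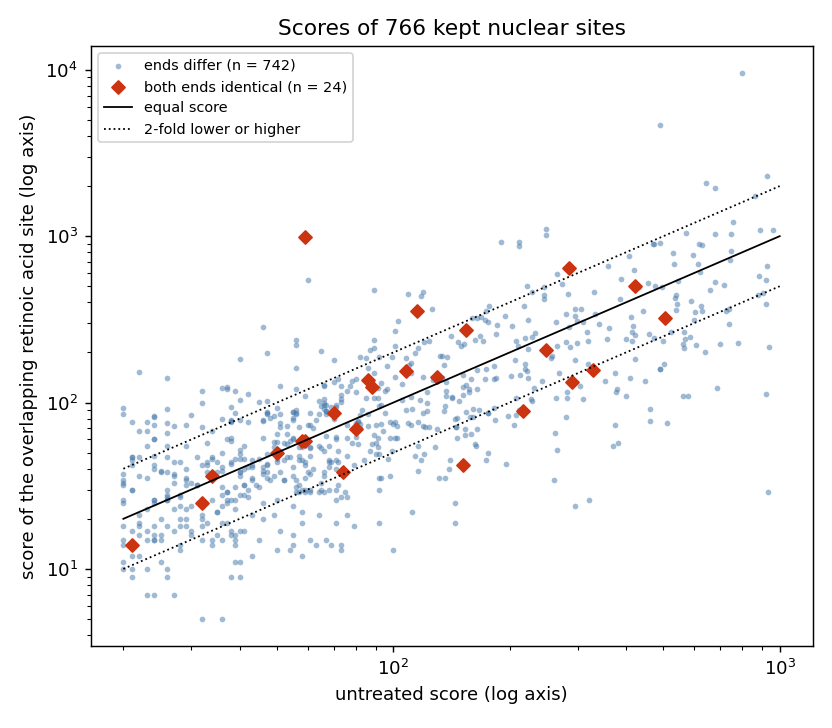
Each point is 1 of the 766 kept sites, with the untreated score on the x axis and the score of the overlapping retinoic acid site on the y axis, both logarithmic. The solid line marks equal scores and the dotted lines a 2-fold difference, within which 515 sites lie; red diamonds are the 24 sites with both ends identical.

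The direction of the score change depended on how the lists were put on 1 scale. The summed score of the whole list was 6580243 untreated and 4702962 treated, and the sources used here do not say what the score counts. With treated scores multiplied by the ratio of these sums, 1.40, the median log2 change of the kept sites turned to 0.26, with 61.4% higher and 38.6% lower. With treated scores scaled so that the 224 overlapping nuclear sites scored 1000 or more had a median change of 0, it was 0.46, with 69.7% higher and 30.3% lower. As deposited, those 224 sites had a median log2 change of -0.68. They were picked by a high score in the untreated list alone, and the effect of that choice on the scaling was not tested. Neither scaling can be preferred from the lists, so a rise or fall of contact at the kept sites as a group cannot be stated.

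The change varied with the untreated score. The median log2 change was 0.03 for kept sites scored 20 to 49, -0.18 at 50 up to 100, -0.35 at 100 up to 200, -0.40 at 200 up to 500 and -0.63 at 500 up to 1000. Partners at least 2-fold lower made up 14.3% of the first of these bins and 37.1% of the last, and partners at least 2-fold higher made up 19.2% and 8.06%. Bins cut on the untreated score hold sites chosen partly for a low or high value in that list, and a low-scored site counted only if a treated site was listed at all. When 793 pairs were chosen instead by a treated score in that range, the median log2 change was -0.06, with 47.3% higher and 51.8% lower.

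The summed score of the kept sites went the other way from the median. It was 119561 untreated and 126242 treated over 751 partners, a ratio of 1.06, and it made up 1.82% and 2.68% of the summed score of each list. The 2 partners with the highest score carried 14217 of the treated sum. Without them and their untreated sites, the sums were 118271 and 112025.

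The largest increases in score were listed by site, whether or not the locus held other kept sites. The site with the highest treated score, at chr10:42576626-42576642 (minus strand), had 800 untreated and 9541 treated, 11.9-fold higher, and its partner began 11 bases further along the RNA. At chr1:115800829-115800852 (minus strand), the score was 490 untreated and 4676 treated, 9.54-fold higher. The other kept site of that locus scored 746 untreated and 811 treated. The largest ratio was at chr8:95786489-95786496 (plus strand), an 8-base site with the same ends in both lists, whose score was 59 untreated and 983 treated, 16.7-fold higher. A 13-base site at chr13:15819764-15819776 (plus strand) scored 60 untreated and 543 treated, but the sites shared only 1 base. The site at chr7:143249725-143249732 (plus strand) had 22 untreated and 153 treated. The log2 changes of the 5 sites with the largest increases were 2.80 to 4.06, against an upper quartile of 0.52 over the kept sites. The pooled lists give no error for any of them.

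Of the 5 highest treated scores, the other 3 belonged to sites that already scored over 600 untreated. At chrX:73374508-73374524 (minus strand) the scores were 927 untreated and 2297 treated, and both sites ended at the same base at their 3′ end. At chr6:47731642-47731653 (plus strand) they were 645 and 2076, and the treated site was 38 bases long against 12. At chr13:54285410-54285430 (minus strand) they were 682 and 1951. In all, 14 of the 751 partners (1.86%) had a treated score of 1000 or more, 658 (87.6%) scored from 20 to under 1000, and 79 (10.5%) scored under 20.

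The largest decrease in score was at chr4:126707816-126707846 (plus strand), where a 31-base site scored 935 untreated and its 19-base partner 29, 32.2-fold lower. The next were at chr11:103934303-103934309 (minus strand), with 320 and 26, and at chr6:43286258-43286265 (plus strand), with 295 and 24. Both of these were 12.3-fold lower. At chr3:120952851-120952862 (minus strand) the scores were 922 and 112, but only 1 base was shared. The site at chr4:79650085-79650094 (plus strand) had 100 and 13, with identical 5′ ends. Of these 5, the last alone had an end in common with its partner.

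Loci with many kept sites held both higher and lower partners, and they differed in their balance. The plot of score change at the 10 loci with the most kept sites shows sites on both sides of 0 at 9 of them, on scores as deposited. The largest locus, at chr1:24618474-24623003 (minus strand), held 40 kept sites of 84 untreated sites in its span, all 84 of them in the score range, and 57 treated sites. Its kept sites scored 26 to 688 untreated (median 136) and 13 to 459 treated (median 84). They were lower after treatment at 30 and higher at 10, with a median log2 change of -0.83 and a range of -2.92 to 1.00. The 40 had 36 partners, and a partner touching 2 kept sites was set whole against each. Such partners scoring 30 and 109 were lower than both of their sites. That scoring 459 was higher than both, 331 and 229, the latter giving the 1.00. That scoring 135 was lower than 243 and higher than 78. With the scalings given above, by summed scores and by sites scored 1000 or more, 25 and 23 of the 40 were lower. None of the 40 had both ends identical, and 9 had 1 end identical. No sequence of the mm9 build was at hand, so a match of this or any other kept locus to mitochondrial DNA was not tested.

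**Figure D3:**
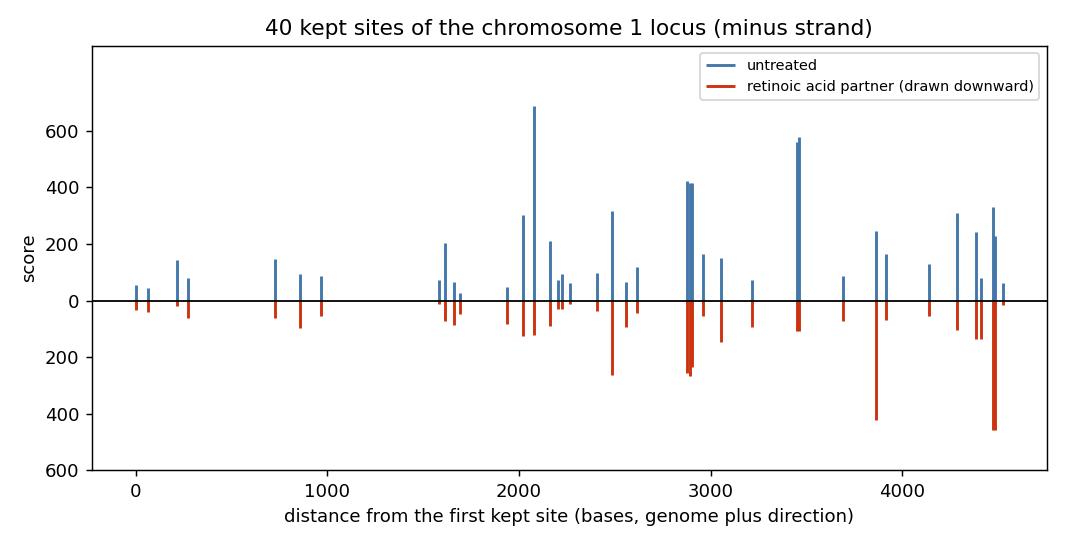
Score of each of the 40 kept sites of the largest locus, upward for untreated cells and downward for the retinoic acid partner, against the distance from the first kept site in bases. The tallest untreated site scores 688 and its partner 122, while the highest treated score, 459, belongs to 1 partner that touches 2 kept sites and is drawn at each.

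At the other loci with more than 10 kept sites, most sites were also lower. At chrX:166408067-166428349 (plus strand), 18 kept sites scored 20 to 174 untreated (median 54.5) and 7 to 161 treated (median 34), and 15 were lower. At chr2:22442842-22445693 (minus strand), 17 kept sites scored 41 to 568 untreated (median 246) and 32 to 494 treated (median 120), and 16 were lower. The exception at the latter scored 246 and 494. The 17 sites there had 16 partners, a shared one again being set whole against both of its sites. The majorities depended on the scale: 13 and then 9 of the 18 on X were lower under the scalings by summed scores and by high-scored sites, and 9 and then 7 of the 17 on chromosome 2. These loci differed in density, since the chromosome 2 locus had 17 kept of 30 sites of the score range within 2852 bases, and the X locus 18 of 103 within 20283 bases.

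The balance differed again among the smaller loci. At chr6:122678080-122679492 (minus strand), 9 kept sites scored 47 to 265 untreated and 41 to 220 treated, and 6 were higher. The 9 sites had 8 partners, a shared one being set whole against both of its sites. At the locus at chr19:44378135-44380649 (plus strand), the 6 kept sites scored 57, 32, 30, 39, 24 and 50 untreated and, in the same order, 54, 118, 84, 87, 60 and 46 treated. There 4 of 6 were at least 2-fold higher and the other 2 were slightly lower, so the treated range of 46 to 118 overlapped the untreated range of 24 to 57. At chr3:95463798-95466566 (plus strand), 4 of 6 were higher, among them a site with 103 untreated and 309 treated. Under either scaling, 7 of the 9 sites on chromosome 6 and all 6 at each of the chromosome 19 and 3 loci were higher.

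At 1 locus of the 10, every kept site was lower on scores as deposited. This was at chr7:3218749-3220636 (plus strand), where the 6 sites scored 39, 157, 66, 153, 71 and 163 untreated and, in the same order, 16, 121, 29, 69, 26 and 56 treated. Of these, 5 were at least 2-fold lower, and 5 of the 6 remained lower under either scaling. The 2 loci on the plus strand of chromosome 11 were mixed, with 5 of 8 sites lower from 50193954 to 50199876 and 4 of 6 lower from 23178195 to 23194030 (4 and 2 under either scaling). The locus at chr4:126707816-126712759 (plus strand) contained the largest decrease of all. Its 7 kept sites summed to 1219 untreated and 294 treated, but without that site to 284 and 265.

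**Figure D4:**
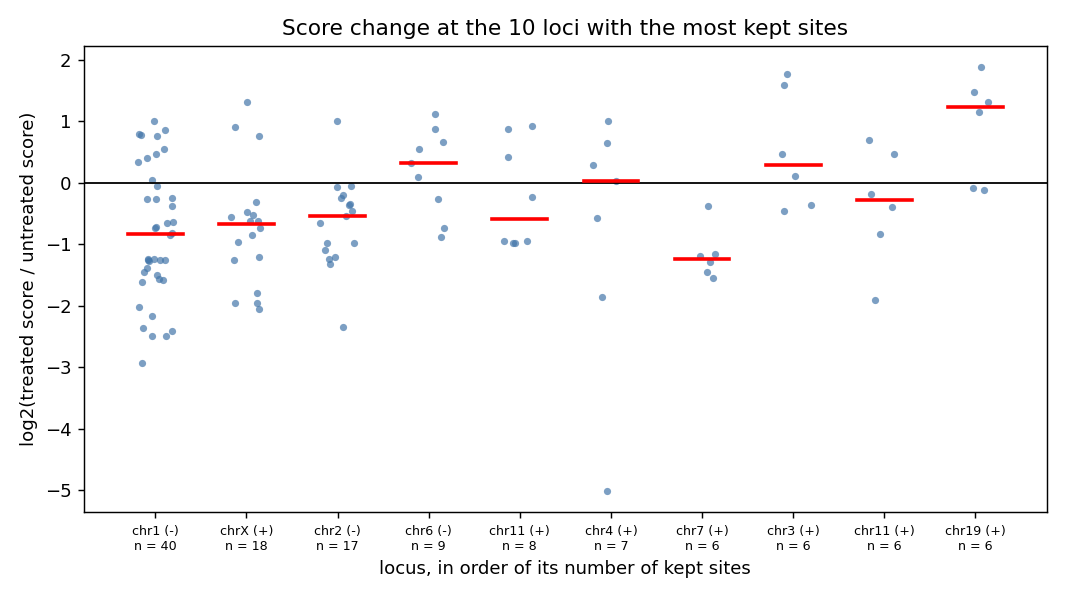
Log2 of treated over untreated score for each kept site (points) and the median (red line) at the 10 loci with the most kept sites, on scores as deposited. The chromosome 7 locus has its 6 sites below 0, the chromosome 19 locus has 4 of 6 above 1, and the chromosome 1, X and 2 loci spread across 0 with medians of -0.83, -0.67 and -0.53.

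Sites of 1 locus often differed in direction. Over the 88 loci with 2 or more kept sites, all sites were lower at 30, all were higher at 13, and directions were mixed or a score was equal at 45. The SD of the log2 change within these loci was 1.02, close to the SD of 1.08 over all kept sites, and the means of the loci had an SD of 0.82. Kept sites at single-site loci had a median log2 change of -0.03 (n = 451) and those at loci of 2 or more had -0.42 (n = 315). Counting each locus once by its median gave -0.13 over 539 loci, with 246 higher and 288 lower. These are values on scores as deposited. With the scaling by summed scores, all sites were lower at 13 of the 88 loci and all higher at 27, and with that by high-scored sites at 8 and 34. There were 15 partners that each touched 2 kept sites of 1 locus. Both sites then took the same treated score, in these counts and in the SD within loci.

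Exact agreement of site ends was rare. Both ends of the untreated site and its treated partner were the same base at 24 of 766 kept sites, 3.13% (exact interval 2.02 to 4.63), beside 3.13% of all 1468 overlapping sites. At least 1 end was identical at 175 (22.8%), beside 21.7% of all overlapping sites. The 5′ end was identical at 90 kept sites (159 of the 1468) and the 3′ end at 109 (206 of the 1468). Exactly 1 end was identical at 151 kept sites (19.7%), beside 18.6% of all overlapping sites. Both ends lay within 2 bases at 172 kept sites (22.5%), beside 21.6% of all overlapping sites. The median distance was 4 bases between 5′ ends (quartiles 1 and 8) and 3 bases between 3′ ends (quartiles 1 and 8). The most frequent offset was 0 at either end, but 124 of the 5′ ends and 121 of the 3′ ends were more than 10 bases apart.

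**Figure D5:**
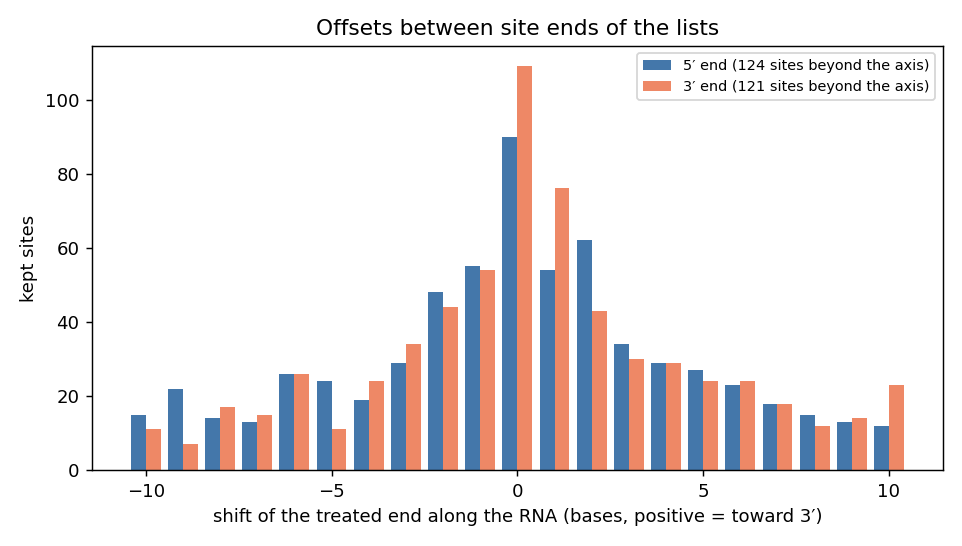
Number of kept sites by the offset in bases of the treated 5′ end (blue) and 3′ end (orange) from the untreated end, read along the RNA, with positive values toward the 3′ end. Both distributions peak at 0, with 90 and 109 sites, and fall off on both sides; 124 and 121 sites lie beyond the 10 bases shown.

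Both ends were shifted the same way at 444 kept sites (58.0%), beside 53.3% of all 1468 overlapping sites. The treated site began and ended further toward the 3′ end at 255 kept sites (33.3%) and further toward the 5′ end at 189 (24.7%). It lay inside the untreated site at 136 (17.8%, beside 21.0% of all) and enclosed it at 162 (21.1%, beside 22.5%). The shift toward the 3′ end was the more frequent on each strand, at 146 against 91 sites on the plus strand and 109 against 98 on the minus strand. Among overlapping sites scored under 20 the order was the other way, 29 against 53, and over all 1468 it was 406 against 376. None of these differences was tested.

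Kept sites had a median of 12 bases (quartiles 9 and 16.8, range 2 to 71), their partners 13 (10 and 16, range 3 to 69) and unkept sites of the same score range 12 (10 and 17). The shared stretch had a median of 8 bases (quartiles 5 and 11). It was a single base at 36 kept sites (4.70%), beside 3.47% of all overlapping sites. At 438 kept sites (57.2%) it covered at least 50% of both sites, beside 57.6% of all overlapping sites. Length was the same in both lists at 65 kept sites (8.49%), beside 8.72% of all overlapping sites. Of these 65 kept sites, 24 coincided and 41 were displaced.

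The 24 coinciding sites were 6 to 18 bases long and scored 21 to 505 untreated (median 98) and 14 to 983 treated (median 128). Of these, 20 stood alone at their locus, 4.43% of the 451 such kept sites, and 4 lay among the 315 at loci of 2 or more, 1.27%. That difference was not tested. The longest, at chr10:82418160-82418177 (minus strand), spanned 18 bases and scored 290 untreated and 132 treated. A 14-base site at chrX:77163926-77163939 (minus strand) scored 328 and 157. Of 5 coinciding sites of 13 bases, the 3 with the highest untreated score were on the plus strand, at chr1:133828630-133828642 with 108 and 154, at chr11:87864576-87864588 with 74 and 38, and at chr17:17005585-17005597 with 70 and 87. At a pair of sites chosen after their values were seen, ends and score were both the same: 59 in each list at chr12:40287037-40287049 (minus strand), and 50 in each at chr15:96519168-96519178 (minus strand).

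Identical ends were compared with those of overlapping nuclear sites above and below the score range, since the rule asked only for 1 shared base in each set. Sites scored 1000 or more had both ends identical at 15 of 224 (6.70%), against 24 of 766 kept sites, an odds ratio of 0.451 (interval 0.222 to 0.943). The two-sided Fisher exact p was 0.0293, and 0.0587 after Benjamini-Hochberg adjustment over the 2 comparisons, so the difference missed the threshold of 0.05. Sites scored under 20 had both ends identical at 2 of 138 (1.45%), an odds ratio of 2.20 (interval 0.535 to 19.4, Fisher exact adjusted p = 0.408). The tests count sites and not libraries, and sites of 1 transcript are not independent, which makes these p-values too small. The comparison with sites scored 1000 or more passed when strand was ignored, when the score range began at 10 or when the chromosome 17 and 19 intervals were kept in (Fisher exact adjusted p = 0.0366, 0.0301 and 0.0192). It did not pass under the other 5 alternatives (Fisher exact adjusted p from 0.0526 to 0.179), so the outcome depended on the setting.

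Mitochondrial sites of the same score range that overlapped a treated site had both ends identical at 0 of 158, which allows a share of up to 1.90% by the limit of 3 counts of the total and 2.31% by the exact two-sided interval. Sites of the same score range in the intervals left out on chromosomes 17 and 19 gave 0 of 60. The same limits allow up to 5.00% and 5.96% there. With all scores, these intervals held 151 overlapping sites, and identical ends did occur among the higher-scored ones. With the intervals kept in, sites scored 1000 or more had identical ends at 20 of 315, against 15 of 224 without them. The median log2 changes of the 158 mitochondrial and 60 interval sites were -0.66 and -0.64, against -0.23 at the kept nuclear sites. At least 2-fold higher partners numbered 5 of 158 and 0 of 60, against 90 of 766. Nearly all of these mitochondrial and interval sites shared a name label with another untreated site, 150 of 158 and 60 of 60, against 280 of 766 kept sites. These differences were not tested, nor was any match of the kept loci to mitochondrial sequence.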

How the data were processed

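Per the labels' protocols, JARID2 was immunoprecipitated from 4-thiouridine-labelled, irradiated E14 cells, and RNA was trimmed with RNases A and T1 when required. The authors deposited 1 list of sites per condition, each for 3 libraries together, with a whole-number score per site as its unit. The submitters' processing notes name Bowtie and the mm9 build, with no role. For the site caller, the meaning of the score and the read depth per library, nothing is given in the sources used here, and intervals rest on numbers of sites.

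The kept sites, loci and tests were chosen with earlier results of these data known. Each kept site was paired with the treated site of largest overlap, ties going to the higher score, and 15 treated sites were the partner of 2 kept sites. Log2 changes are of the deposited scores, with no pseudocount. Ends were compared along the RNA strand. Sites were joined into loci across up to 10 kb. Shares have exact 95% binomial intervals. Shares of identical ends were compared by two-sided Fisher exact tests with Benjamini-Hochberg adjustment over 2 tests. Named here are the 10 loci with the most kept sites, the 5 largest increases and decreases in score, the 5 highest treated scores, the 5 longest coinciding sites (ties by untreated score) and the sites next to the score bounds. Gene lists drawn up for the study were not run, because the annotation at hand was of a later build and positions were not converted. Pairing, offsets and loci were tested on simulated data. Alternatives were a reciprocal overlap, strand ignored, other score ranges, the left-out intervals kept in, rescaled scores, another choice of partner, 1 value per locus, the largest locus left out, other gaps and a 2-base tolerance. Choosing pairs by treated score and a length range of 10 to 20 bases were added after the data were seen. Scripts ran under Python 3.11.15; tests came from scipy 1.17.1, tables from pandas 2.3.3 and plots from matplotlib 3.10.9.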

Additional observations from a re-analysis of the deposited data

How the results depend on the processing

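The number of kept sites followed its definition: 4.89% of the score range were kept with at least 50% of both sites shared, 20.8% with a minimum score of 50 and 4.35% with a minimum of 10, against 8.55%. The median log2 change of -0.23 reversed to 0.26 with scores scaled by the summed scores and to 0.46 with scores scaled to sites scored 1000 or more; the shift is the scaling's own construction. Under the other alternatives run it stayed between -0.32 and -0.06. For identical ends, the difference from sites scored 1000 or more, -3.56 percentage points, became -3.62 with strand ignored, -3.78 with a minimum score of 10 and -3.44 with the intervals kept in, each then past the threshold in the Fisher exact test. The difference from sites of lower score, 1.68 points, became 2.73 with a minimum score of 50 in place of 20 (Fisher exact adjusted p = 0.0310). The cause was not tested. Under the remaining alternatives neither difference changed side or sign. The number of loci was 590 and 500 with gaps of 1 and 100 kb. No paired analysis was possible because each list pools its 3 libraries. Read depth is unknown, and no library could be left out.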

Other observations

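Few sites of the score range touched a treated site of the other strand alone: 14 of the 8191 that were not kept (0.171%), with a median score of 49 untreated and 46 treated.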
